A study of Mus musculus with 14 samples.

Results

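Mitochondria keep their own set of molecular chaperones and proteases, and 8 genes of this set are described here: Hspd1, Hspe1, Hspa9, Grpel1, Trap1, Lonp1, Clpp and Clpx. They were chosen by name, with no measured value in the rule, though with earlier results of these data known. Every probeset (a group of short probes that reports the RNA of a gene) annotated with a member alone was taken, which gave 14 of the 22626 probesets tested, and the 8 genes stand among 12393 genes that have such a probeset. RNA of B16F10 cells, a mouse melanoma line, was read on 14 Affymetrix mouse expression arrays. Of these, 3 arrays came from cells treated with Lipofectamine, a cationic liposome used to carry DNA into cells, for 3 h in Opti-MEM followed by 30 min in RPMI medium with fetal bovine serum. Another 3 came from cells heat shocked for 1 h at 42.5 °C and left for 30 min at 37 °C, and 3 more from cells given 40 mM benzyl alcohol, an agent that fluidizes membranes, for 1 h. The control arrays, 5 in number, came from untreated cells grown in RPMI with serum at 37 °C. The change to Opti-MEM and the liposomes cannot be told apart, because no control array had the change of medium alone. The recovery after benzyl alcohol is given as 3 h in the treatment description and as 30 min in the design text of the series, so the times of the treatments may differ.

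Most mitochondrial proteins are made in the cytosol and imported unfolded. In the matrix Hspa9 pulls them in and holds them, the exchange factor Grpel1 resets Hspa9, and the barrel formed by Hspd1 with its lid Hspe1 encloses them while they fold. Proteins that fail to fold are degraded by Lonp1 or by Clpp, a protease chamber fed by the unfolding ATPase Clpx. Some of these genes are induced when proteins misfold in the matrix, a response that in mammals has been tied to the transcription factors Atf4, Atf5 and Ddit3, whereas Hspd1 and Hspe1 are also known as targets of heat shock factor 1.

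Hspd1 and Hspe1 lie head to head on chromosome 1 and are read in opposite directions from the DNA between them. This stretch is shown because the same bases precede the starts of both chaperonin genes. In the RefSeq annotation of build GRCm38.p6 Hspe1 starts at 55088148 on the plus strand and one Hspd1 transcript starts at 55087932 on the minus strand, with 215 bases between the starts. Another Hspd1 start is annotated at 55088243, and for that transcript the stretch lies downstream of the start. The plus strand of chr1:55087933-55088147 reads as follows, with capitals marking 18 bases built of 4 GAA or TTC units, the letters of a heat shock element.
Hspd1-Hspe1: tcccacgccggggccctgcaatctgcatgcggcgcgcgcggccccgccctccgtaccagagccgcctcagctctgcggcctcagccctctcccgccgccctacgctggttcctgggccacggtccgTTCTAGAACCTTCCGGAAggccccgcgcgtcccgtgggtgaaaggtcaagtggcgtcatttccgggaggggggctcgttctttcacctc
The marked bases end 72 bases before the first base of Hspe1.

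Promoter windows of 300 bases, 250 before and 50 after a start, were searched on both strands for the heat shock element of 3 units, in which GAA and TTC alternate with any 2 bases between them, for the overlapping 2-unit forms GAANNTTC and TTCNNGAA, and for TGATGNAA, the composite bound by C/EBP and ATF factors. RefSeq windows of the same length were at hand for 7 of the 8 members, in 8 windows. No window of Hspa9 was searched, so nothing here describes its promoter. The 3-unit element was found at 2 overlapping places, those within the capitals above, in the Hspe1 window and in the Hspd1 window of the closer start, and in no other member window. Of 32851 windows over all genes, 0.603% held it. Clpp carried TTCNNGAA once, beginning at base 33 after its start, a motif present in 8.52% of all windows, and GAANNTTC, present in 7.86%, was found beside Hspd1 and Hspe1 alone. TGATGNAA, present in 3.97% of all windows, was in none of the 8 member windows. A match describes letters only, and binding was not measured.

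On the arrays as a whole, RMA left the medians close to each other, and the melanocyte markers Dct, Pmel, Tyr, Tyrp1, Sox10 and Mitf were bright in all groups, with a summed signal of 14.7 to 15.2 on the log2 scale, against 9.18 to 9.76 for macrophage, 8.59 to 9.06 for fibroblast and 8.53 to 9.03 for epithelial markers. Sox10 and Tyr were lower with heat shock and Cd68 was higher with benzyl alcohol. Mitf differed from control by -1.46 with heat shock (limma adjusted p = 0.0528) and by -1.41 with Lipofectamine (adjusted p = 0.0671), neither under 0.05. The part of these genes in the results below was not tested. Control arrays 1 and 3 stood apart from control arrays 2, 4 and 5, a division that the labels do not name: both lay above the other 3 at 17.7% of all probesets and below them at 21%, and the gap reached 0.5 on the log2 scale at 4.53%. Any pair of control arrays would lie together at an end at some probesets, and no other pair was counted. Lipofectamine array 1 lay between the other Lipofectamine arrays at 66.8% of probesets, more often than any other treated array (16.4% to 45.2%). Where leaving out control arrays 1 and 3, or control arrays 2, 4 and 5, changed a call of a member or turned a difference from control that was called in either fit, the values of these fits are given. The division was seen in these same arrays, and leaving out either part removes the spread between the parts from the fit. Where the parts lie apart, a smaller p in these fits comes with that removal and is no further support for a difference. The other listed genes were not refitted without these arrays. All values below are log2 RMA signals, a difference of 1 is a doubling, and "called" means a Benjamini-Hochberg adjusted p under 0.05 over all 22626 probesets in limma. The arrays are labelled biological replicates, and p-values measure the spread between these.

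Of the 14 member probesets, 0 were called with Lipofectamine against control, where 4.88% of all probesets were called. With heat shock 1 was called, against 5.96% of all probesets, and with benzyl alcohol 1, against 1.39%. An unadjusted p under 0.05 was found for 5 members with Lipofectamine (18.8% of all probesets), 3 with heat shock (22.8%) and 5 with benzyl alcohol (13.4%). Both calls were higher than control and both were Hspe1. Read from the brightest probeset of each gene, none of the 8 members was called in any of the 3 comparisons with control, where 5.02% (Lipofectamine), 5.04% (heat shock) and 1.42% (benzyl alcohol) of 12393 genes were. With so few members these counts do not set the group apart from probesets at large, and the results below are those of single genes.

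**Figure D1:**
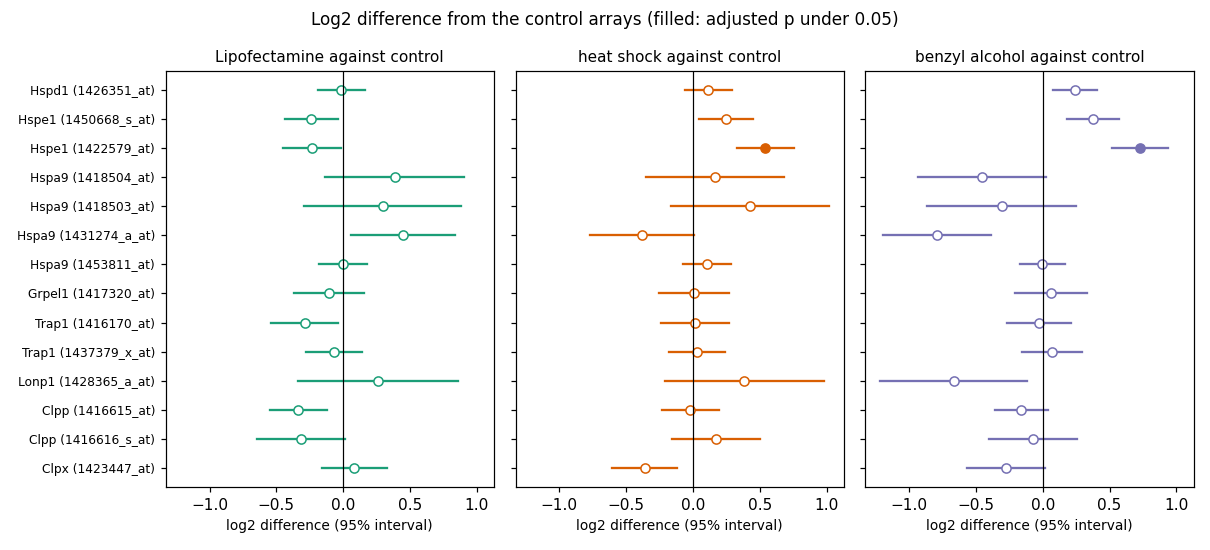
Log2 difference from the control arrays (x axis) for each of the 14 member probesets (y axis), from left to right for Lipofectamine, heat shock and benzyl alcohol. Points are fitted differences, lines their 95% intervals in limma, and filled points have an adjusted p under 0.05. The filled points are Hspe1 at 0.54 with heat shock and at 0.72 with benzyl alcohol, and the widest intervals are those of Hspa9 and Lonp1.

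The chaperonin lid Hspe1 was the member that moved with heat shock and benzyl alcohol, and its level with Lipofectamine was lower than with either. Its probeset 1422579_at read 11.01, 10.96 and 11.06 on heat shock arrays and 11.18, 11.08 and 11.30 on benzyl alcohol arrays. On Lipofectamine arrays it read 10.20, 10.43 and 10.05, and on control arrays 1 to 5 10.36, 10.42, 10.55, 10.58 and 10.42. All 6 arrays of heat shock and benzyl alcohol lay above every control array, while Lipofectamine array 2 lay within the control range and the other Lipofectamine arrays below it.

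Against control this probeset of Hspe1 rose with benzyl alcohol by 0.72 (SE 0.10, 1.65-fold, limma adjusted p = 0.00123). It rose with heat shock by 0.54 (SE 0.10, 1.46-fold, adjusted p = 0.00936). The heat shock call did not hold when heat shock array 3 was left out (adjusted p = 0.0604) or with the replicate number as a block (adjusted p = 0.0978), whereas the benzyl alcohol call was kept in every alternative run. With Lipofectamine the difference was -0.23 (95% interval -0.45 to -0.02, adjusted p = 0.221).

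The other Hspe1 probeset, 1450668_s_at, showed the same order of groups, with smaller differences from control for benzyl alcohol and heat shock. It read 12.38, 12.23 and 12.17 on benzyl alcohol arrays, 12.01, 12.23 and 12.17 on heat shock arrays and 11.55, 11.70 and 11.70 on Lipofectamine arrays, against 11.80, 11.98, 11.79, 12.00 and 11.89 on control arrays. The benzyl alcohol and heat shock arrays again lay above every control array, and here all 3 Lipofectamine arrays lay below every control array, although control arrays 1 and 3 were the lowest of the controls. None of the 3 differences from control was called: 0.37 with benzyl alcohol (adjusted p = 0.0586), 0.25 with heat shock (adjusted p = 0.13) and -0.24 with Lipofectamine (adjusted p = 0.174). The difference with benzyl alcohol was called in 4 alternatives, among them the mean of both Hspe1 probesets, which is not a value of this probeset alone. It was also called without control arrays 2, 4 and 5 (0.47, adjusted p = 0.0156), and not without control arrays 1 and 3 (0.31, adjusted p = 0.135). For the mean of both probesets the heat shock difference was called as well (0.40, adjusted p = 0.0166). The suffix of this probeset marks probes shared between related transcripts, and the annotation names 7 pseudogenes after Hspe1, so its signal may include other RNAs.

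Hspd1, which forms the barrel itself, gave smaller differences. It read 12.93, 12.89 and 12.90 on benzyl alcohol arrays, 12.71, 12.83 and 12.82 on heat shock arrays and 12.68, 12.68 and 12.61 on Lipofectamine arrays, against 12.68, 12.72, 12.56, 12.73 and 12.65 on control arrays. Only the benzyl alcohol arrays lay wholly above the controls, by a difference of 0.24 (SE 0.08, 95% interval 0.08 to 0.40, 1.18-fold), which was not called (adjusted p = 0.161). The difference was 0.12 with heat shock (-0.06 to 0.29, adjusted p = 0.413) and -0.02 with Lipofectamine (-0.19 to 0.16, adjusted p = 0.962). In the annotation 5 pseudogenes are named after Hspd1.

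**Figure D2:**
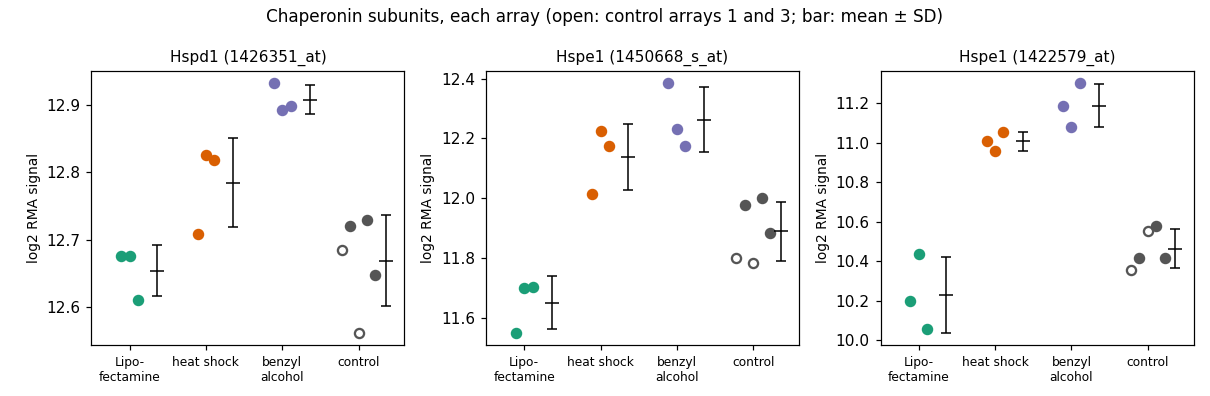
Log2 RMA signal (y axis) of Hspd1 and of the 2 Hspe1 probesets on every array, by treatment (x axis). Points are arrays, open points control arrays 1 and 3, and bars the mean ± SD of 3 treated or 5 control arrays. Benzyl alcohol arrays lie above all control arrays in each panel, and the steps are widest for Hspe1 at 1422579_at (11.19 ± 0.11 with benzyl alcohol, 10.46 ± 0.10 in control).

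Compared directly, the treatments split Hspe1 further. Of all probesets 5.72% were called between Lipofectamine and heat shock, 7.22% between benzyl alcohol and heat shock and 11.9% between benzyl alcohol and Lipofectamine, and of the 14 member probesets 3, 1 and 5 were called in these comparisons in this order. With Lipofectamine Hspe1 was lower than with heat shock by -0.78 at 1422579_at (SE 0.11, adjusted p = 0.00208), kept in every alternative. At 1450668_s_at it was lower by -0.49 (SE 0.10, adjusted p = 0.0152), a call that no longer passed when Lipofectamine array 1 (adjusted p = 0.0918) or heat shock array 2 or 3 was left out.

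With benzyl alcohol both Hspe1 probesets were higher than with Lipofectamine, by 0.96 at 1422579_at (SE 0.11, 1.94-fold, adjusted p = 0.000194) and by 0.61 at 1450668_s_at (SE 0.10, adjusted p = 0.00209). Both calls were kept in every alternative. Between benzyl alcohol and heat shock Hspe1 was not called, with differences of 0.18 (95% interval -0.05 to 0.42, adjusted p = 0.376) and 0.13 (-0.09 to 0.34, adjusted p = 0.548). At 1422579_at, and for Hspd1, the benzyl alcohol arrays nevertheless lay above every heat shock array. For Hspd1 the difference between benzyl alcohol and Lipofectamine was 0.25 (adjusted p = 0.0683) and that between benzyl alcohol and heat shock 0.12 (adjusted p = 0.462). The order of the Hspe1 means was thus benzyl alcohol, heat shock, control and Lipofectamine, in which benzyl alcohol and heat shock did not pass the test against each other and neither did control and Lipofectamine.

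Over the 14 arrays Hspd1 correlated with Hspe1 at r = 0.87 (1450668_s_at) and r = 0.84 (1422579_at), and the 2 Hspe1 probesets with each other at r = 0.89. The probesets of other genes closest to Hspd1 were those of Dnaja1, a J-domain partner of Hsp70 chaperones (r = 0.92), Ccn3, a secreted matrix protein (r = 0.91), and Hsp90aa1, the inducible cytosolic Hsp90 (r = 0.89). Closest to Hspe1 at 1450668_s_at were Tufm, the mitochondrial translation elongation factor (r = 0.89), Ccn3 (r = 0.88) and Elavl2, a protein that binds RNA (r = 0.88). These values describe arrays that share their treatments and their normalization, and they are not tests.

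Hspa9, the motor of import and the main chaperone of the matrix and the protease Lonp1 had a different pattern, in which the spread lay among the control arrays themselves. Hspa9 at 1418504_at read 11.13, 11.24 and 10.94 on Lipofectamine arrays, 10.88, 10.94 and 10.83 on heat shock arrays and 10.32, 10.19 and 10.29 on benzyl alcohol arrays, against 11.50, 10.20, 11.13, 10.36 and 10.40 on control arrays. Control arrays 1 and 3 were in or above the range of Lipofectamine and heat shock, and control arrays 2, 4 and 5 near that of benzyl alcohol. No treatment therefore stood clear of the controls as a whole, and the difference was 0.39 with Lipofectamine (95% interval -0.13 to 0.91, adjusted p = 0.452), 0.16 with heat shock (-0.36 to 0.68, adjusted p = 0.71) and -0.45 with benzyl alcohol (-0.93 to 0.03, adjusted p = 0.412).

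The same division showed at Hspa9 1418503_at, which read 9.85, 9.97 and 9.44 with Lipofectamine, 9.89, 9.89 and 9.87 with heat shock and 9.25, 8.89 and 9.31 with benzyl alcohol, against 10.19, 8.82, 10.07, 9.22 and 8.98 in control. Heat shock arrays differed among themselves by an SD of 0.01, control arrays by an SD of 0.63. The differences from control were 0.30 (adjusted p = 0.668) with Lipofectamine, 0.43 (adjusted p = 0.37) with heat shock and -0.31 (adjusted p = 0.691) with benzyl alcohol.

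A further Hspa9 probeset, 1431274_a_at, did not follow these 2 on the heat shock arrays. It read 8.32, 8.15 and 7.95 with Lipofectamine, 7.26, 7.35 and 7.33 with heat shock and 7.07, 7.13 and 6.51 with benzyl alcohol, against 8.31, 7.31, 7.46, 7.57 and 7.84 in control. All benzyl alcohol arrays lay below every control array and heat shock arrays overlapped only the lower end of the controls. The difference was -0.79 with benzyl alcohol (95% interval -1.20 to -0.39, adjusted p = 0.0533), -0.38 with heat shock (adjusted p = 0.229) and 0.45 with Lipofectamine (adjusted p = 0.195). The fourth Hspa9 probeset, 1453811_at, lay between 5.40 and 5.65 on all 14 arrays, and its differences from control were -0.00 with Lipofectamine, 0.11 with heat shock and -0.00 with benzyl alcohol. Which transcripts the Hspa9 probesets read is not given in the sources used here.

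Lonp1, the ATP-dependent protease that degrades damaged matrix proteins, was measured by 1428365_a_at and resembled 1418504_at of Hspa9. It read 10.81, 10.88 and 10.56 with Lipofectamine, 11.07, 10.76 and 10.79 with heat shock and 9.79, 9.89 and 9.79 with benzyl alcohol, against 11.31, 10.06, 11.08, 9.98 and 10.01 in control. Lonp1 was lowest on the benzyl alcohol arrays, which lay below every control array, and control arrays 1 and 3 exceeded control arrays 2, 4 and 5 by at least 1.02. The difference from control was 0.26 with Lipofectamine (95% interval -0.33 to 0.86, adjusted p = 0.72), 0.39 with heat shock (-0.21 to 0.98, adjusted p = 0.423) and -0.67 with benzyl alcohol (-1.22 to -0.11, adjusted p = 0.253).

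**Figure D3:**
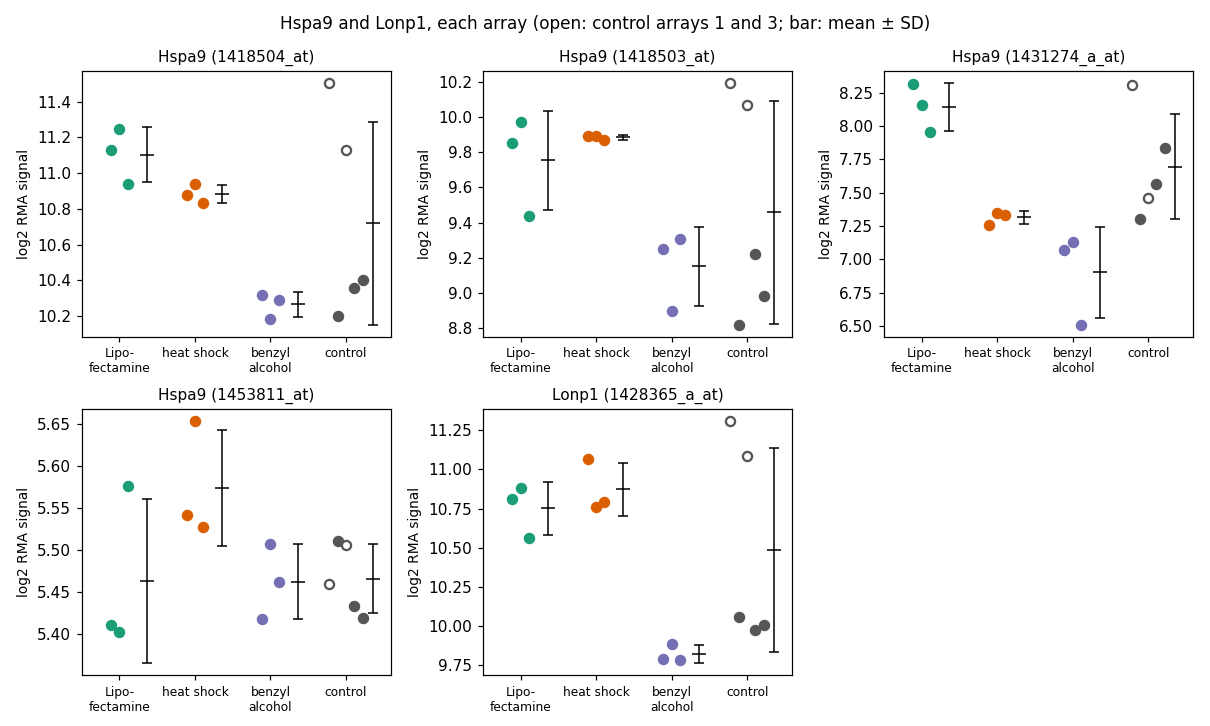
Log2 RMA signal (y axis) of the 4 Hspa9 probesets and of Lonp1 on every array, by treatment (x axis). Points are arrays, open points control arrays 1 and 3, and bars the mean ± SD of 3 treated or 5 control arrays. For Hspa9 at 1418504_at and 1418503_at and for Lonp1 the open points lie above the other 3 control arrays, by 0.73, 0.85 and 1.02.

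For Lonp1 and for Hspa9 at 1418504_at and 1418503_at the choice of control arrays decided both the size and the direction of the differences with Lipofectamine and heat shock, while Hspa9 at 1431274_a_at kept its direction. Without control arrays 1 and 3 Hspa9 differed from control with Lipofectamine by 0.78 (adjusted p = 5.45e-05), 0.75 (adjusted p = 0.000681) and 0.57 (adjusted p = 0.00456) at 1418504_at, 1418503_at and 1431274_a_at. Without control arrays 2, 4 and 5 the differences at these probesets were -0.21, -0.38 and 0.26, with no call. Lonp1 with Lipofectamine differed by 0.74 (adjusted p = 0.000188) without control arrays 1 and 3 and by -0.44 (adjusted p = 0.0978) without control arrays 2, 4 and 5.

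With heat shock the 2 brighter Hspa9 probesets differed by 0.56 (adjusted p = 0.00104) and 0.88 (adjusted p = 0.00014) without control arrays 1 and 3, and by -0.43 and -0.25 without control arrays 2, 4 and 5. At 1431274_a_at the heat shock differences in these fits were -0.25 (adjusted p = 0.2) and -0.57 (adjusted p = 0.11). Lonp1 with heat shock differed by 0.86 (adjusted p = 3.84e-05) and by -0.32 (adjusted p = 0.232) in the same 2 fits. With benzyl alcohol the difference of Lonp1 kept its sign but not its size, at -0.19 (adjusted p = 0.528) without control arrays 1 and 3 and -1.37 (adjusted p = 1.08e-05) without control arrays 2, 4 and 5.

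With benzyl alcohol the Hspa9 probesets disagreed in these fits. Without control arrays 1 and 3 the difference was -0.05 (adjusted p = 0.933) at 1418504_at and 0.14 (adjusted p = 0.82) at 1418503_at. Without control arrays 2, 4 and 5 both were called lower, by -1.05 (adjusted p = 0.000102) and -0.98 (adjusted p = 0.000707), so that 1418503_at turned its sign. Hspa9 at 1431274_a_at was called lower in both fits, by -0.67 (adjusted p = 0.0326) and -0.98 (adjusted p = 0.00685).

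The listed regulators of the mitochondrial stress response divided the control arrays in the same way as Lonp1 and the brighter Hspa9 probesets. Hspd1, Hspe1 at 1422579_at, Grpel1 and Trap1 did not divide them. Atf5, a transcription factor of that response, read 10.69, 10.86 and 10.39 with Lipofectamine, 10.31, 10.10 and 10.17 with heat shock and 8.17, 8.27 and 8.08 with benzyl alcohol, against 10.35, 7.70, 10.46, 7.90 and 7.70 in control. Ddit3, also known as CHOP, read 9.52, 9.56 and 9.18 with Lipofectamine, 11.88, 11.77 and 11.69 with heat shock and 8.50, 8.26 and 8.64 with benzyl alcohol, against 12.28, 8.27, 12.19, 8.43 and 8.13 in control. For both genes control arrays 1 and 3 lay far above the other control arrays, while with Lipofectamine Atf5 reached their level and Ddit3 did not.

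Atf4, the main factor of the integrated stress response, read 12.24, 12.14 and 11.93 with Lipofectamine, 12.37, 12.40 and 12.43 with heat shock and 10.96, 10.93 and 11.15 with benzyl alcohol, against 12.63, 10.84, 12.65, 10.95 and 11.03 in control. Of the 5 regulators listed, 4 were measured (Atf4, Atf5, Ddit3 and Cebpb), and 0 were called in any comparison with control, with median differences of 0.81 with Lipofectamine, 1.37 with heat shock and -0.63 with benzyl alcohol, beside medians over 12393 genes of -0.02, 0.04 and 0.02. Cebpb read 9.12, 8.59 and 9.25 with benzyl alcohol, against 10.51, 7.54, 10.72, 7.58 and 7.56 in control. For all 4 regulators the benzyl alcohol arrays lay below control arrays 1 and 3. They lay above control arrays 2, 4 and 5 for Atf5 and Cebpb and overlapped these for Atf4 and Ddit3. The medians thus depend on which control arrays are used. The part of the regulators in the levels of Hspa9 and Lonp1 was not tested.

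Comparisons between treatments do not use the control means, though the control arrays enter their estimate of the spread. A smaller adjusted p with fewer control arrays therefore reflects a changed spread and adjustment, at the same difference. Lonp1 was lower with benzyl alcohol than with heat shock by -1.05 (SE 0.29, adjusted p = 0.0408) and lower than with Lipofectamine by -0.93 (SE 0.29, adjusted p = 0.0485). These calls were lost in 10 and 11 of the alternatives, most of them with 1 array left out, while without control arrays 1 and 3 the adjusted p was 1.09e-05 and 2.38e-05 at the same differences. The benzyl alcohol arrays did not overlap the heat shock or Lipofectamine arrays for Lonp1.

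Hspa9 was lower with benzyl alcohol than with Lipofectamine by -1.24 at 1431274_a_at (SE 0.21, adjusted p = 0.0025, kept in every alternative) and by -0.84 at 1418504_at (SE 0.25, adjusted p = 0.0415, lost in 11 alternatives). At 1418503_at the difference was -0.60 (adjusted p = 0.214). Without control arrays 1 and 3 the adjusted p was 3.18e-05 at 1418504_at and 0.00752 at 1418503_at, and without control arrays 2, 4 and 5 it was 0.000186 and 0.00766.

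Between benzyl alcohol and heat shock Hspa9 differed by -0.62 at 1418504_at (adjusted p = 0.158) and by -0.73 at 1418503_at (adjusted p = 0.147), and the benzyl alcohol arrays lay below every heat shock array at both. Neither passed with all arrays, whereas both were called without control arrays 1 and 3 (adjusted p = 0.000651 and 0.00229) and without control arrays 2, 4 and 5 (adjusted p = 0.00256 and 0.00245). With Lipofectamine Hspa9 was higher than with heat shock at 1431274_a_at, by 0.83 (SE 0.20, adjusted p = 0.0294), where the Lipofectamine arrays lay above every heat shock array. Without Lipofectamine array 1 that adjusted p was 0.135, and the call was also lost without Lipofectamine array 2 or any 1 heat shock array. The brighter Hspa9 probesets differed between Lipofectamine and heat shock by 0.22 (adjusted p = 0.686) and -0.13 (adjusted p = 0.843), so the probesets of this gene disagreed.

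Grpel1, the exchange factor of Hspa9, did not share the spread of Hspa9. Its probeset 1417320_at ranged from 9.61 to 10.17 with Lipofectamine, from 9.99 to 10.09 with heat shock and from 9.86 to 10.28 with benzyl alcohol, against 9.80 to 10.15 in control. The groups overlapped throughout. Differences from control were -0.11 (95% interval -0.37 to 0.16), 0.01 (-0.26 to 0.27) and 0.06 (-0.21 to 0.33) with Lipofectamine, heat shock and benzyl alcohol.

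Trap1, the mitochondrial member of the Hsp90 family, read 9.27, 9.44 and 9.09 with Lipofectamine, 9.75, 9.50 and 9.46 with heat shock and 9.46, 9.48 and 9.64 with benzyl alcohol at 1416170_at, against 9.46, 9.47, 9.53, 9.84 and 9.47 in control. All Lipofectamine arrays lay below every control array, by a difference of -0.29 (95% interval -0.54 to -0.03, adjusted p = 0.199). The other Trap1 probeset, 1437379_x_at, whose suffix marks probes open to cross-hybridization, lay between 7.94 and 8.31 on all arrays and differed from control by at most 0.07 in either direction.

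Clpp, the protease chamber, was the member with the smallest p against control among the Lipofectamine results. At 1416615_at it read 10.06, 10.19 and 9.96 with Lipofectamine, 10.43, 10.31 and 10.43 with heat shock and 10.23, 10.23 and 10.27 with benzyl alcohol, against 10.52, 10.29, 10.59, 10.31 and 10.33 in control. The Lipofectamine arrays lay below every other array, and the benzyl alcohol arrays below every control array by a narrow margin. The difference with Lipofectamine was -0.34 (SE 0.10, 95% interval -0.55 to -0.12, adjusted p = 0.0728). It was called when all 14 arrays were fitted in 4 groups (-0.34, adjusted p = 0.0488) and without control arrays 2, 4 and 5 (-0.48, adjusted p = 0.0344). Without control arrays 1 and 3 it was not called (-0.24, adjusted p = 0.127).

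At the other Clpp probeset, 1416616_s_at, the Lipofectamine arrays (8.42, 8.60 and 8.20) overlapped the control arrays (8.92, 8.36, 9.11, 8.67 and 8.56), and the difference was -0.32 (adjusted p = 0.292). It was called without control arrays 2, 4 and 5 (-0.61, adjusted p = 0.0202) and not without control arrays 1 and 3 (-0.12, adjusted p = 0.605). For this gene too, control arrays 1 and 3 lay above the other controls, by 0.18 at 1416615_at and 0.25 at 1416616_s_at. With heat shock the 2 Clpp probesets differed from control by -0.02 and 0.17, and with benzyl alcohol by -0.16 and -0.07, without a call. Without control arrays 1 and 3 the heat shock difference of Clpp at 1416616_s_at was 0.36 (adjusted p = 0.0428). Between Lipofectamine and heat shock Clpp differed by -0.32 at 1416615_at (adjusted p = 0.121) and by -0.49 at 1416616_s_at (adjusted p = 0.122), and these differences were called without control arrays 1 and 3 (adjusted p = 0.0493 and 0.0132), the second also without control arrays 2, 4 and 5 (adjusted p = 0.0189).

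Clpx, the ATPase that unfolds proteins for Clpp, was not called in any comparison with all arrays. It read 7.59, 7.63 and 7.27 with Lipofectamine, 6.96, 7.16 and 7.05 with heat shock and 7.33, 6.75 and 7.33 with benzyl alcohol at 1423447_at, against 7.64, 7.26, 7.48, 7.37 and 7.32 in control. The heat shock arrays lay below every control array, by a difference of -0.36 (SE 0.11, 95% interval -0.60 to -0.12, adjusted p = 0.0783), and below every Lipofectamine array, with a difference of 0.44 between Lipofectamine and heat shock (adjusted p = 0.0586). That difference was called in 4 alternatives, among them the fits without control arrays 1 and 3 (adjusted p = 0.0153) and without control arrays 2, 4 and 5 (adjusted p = 0.0284). The difference from control was 0.08 with Lipofectamine (adjusted p = 0.801) and -0.27 with benzyl alcohol (adjusted p = 0.417), where benzyl alcohol array 2 alone lay below all controls. Whether the responses of Clpp and Clpx differ was not tested.

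**Figure D4:**
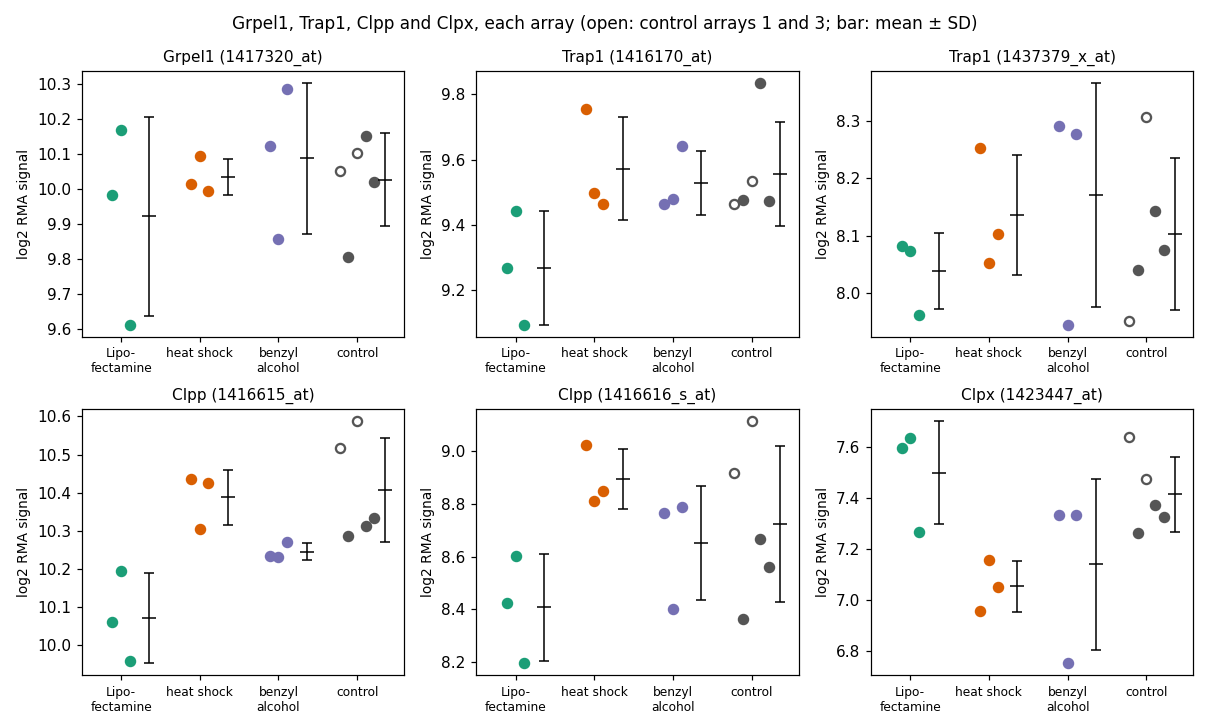
Log2 RMA signal (y axis) of Grpel1, Trap1, Clpp and Clpx on every array, by treatment (x axis), 1 panel per probeset. Points are arrays, open points control arrays 1 and 3, and bars the mean ± SD of 3 treated or 5 control arrays. Lipofectamine arrays lie lowest for Clpp at 1416615_at (10.07 ± 0.12 with Lipofectamine, 10.41 ± 0.14 in control) and heat shock arrays below control for Clpx (7.05 ± 0.10 with heat shock, 7.41 ± 0.15 in control).

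Other mitochondrial genes were read from listed genes, 1 brightest probeset each. Of all 12393 genes read in this way, 5.02% were called with Lipofectamine, 5.04% with heat shock and 1.42% with benzyl alcohol. Medians over all genes were -0.02, 0.04 and 0.02. With so few genes in each mitochondrial list, their counts do not set the lists apart from genes at large. Of 14 measured genes of import and processing, 1 was lower with Lipofectamine, 0 were called with heat shock and 1 was higher with benzyl alcohol, with medians of -0.13, -0.11 and 0.10. The gene lower with Lipofectamine was Pmpca, a subunit of the peptidase that removes import signals, which read 9.03, 9.22 and 8.93 on Lipofectamine arrays, against 9.47 to 9.65 on control arrays (-0.52, adjusted p = 0.00951). Tomm22, a receptor of the outer membrane, was the gene higher with benzyl alcohol, at 10.69 or more on all 3 of those arrays, against 9.91 to 10.51 on control arrays (0.58, adjusted p = 0.0269).

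A list of 10 mitochondrial proteases and scaffolds held mostly proteins of the inner membrane and intermembrane space. Of these 10 genes, 2 were lower with Lipofectamine, 1 was lower with heat shock and 0 were called with benzyl alcohol (medians -0.18, -0.17 and -0.01). Htra2, a serine protease of the intermembrane space, was lower with Lipofectamine by -0.79 (adjusted p = 0.00966) and with heat shock by -0.60 (adjusted p = 0.0323). Stoml2, a scaffold of inner membrane proteases, was lower with Lipofectamine by -0.70 (adjusted p = 0.01). All 3 Lipofectamine arrays lay below every control array for both genes.

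Among 5 other mitochondrial chaperones and co-chaperones, most of them of the matrix or inner membrane, 1 was lower with Lipofectamine and 1 with heat shock. With benzyl alcohol 0 were called (medians -0.21, 0.06 and -0.24). Bcs1l, an assembly factor of respiratory complex III, was lower with Lipofectamine by -0.39 (adjusted p = 0.0498). Grpel2, the paralogue of Grpel1, was lower with heat shock by -0.50 (adjusted p = 0.00907), at 8.41, 8.28 and 8.46 on heat shock arrays, against 8.70 to 8.95 on control arrays. Of 22 genes of the respiratory chain and citrate cycle 1, the complex III core subunit Uqcrc2, was lower with Lipofectamine (-0.59, adjusted p = 0.04), 0 were called with heat shock and 0 with benzyl alcohol, with medians of -0.15, -0.09 and 0.09.

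Several heat shock genes of the cytosol, though not all, gave much larger differences with heat shock and benzyl alcohol than the mitochondrial members. Of 9 measured, 3 were higher with Lipofectamine, 7 with heat shock and 6 with benzyl alcohol, with medians of 0.47, 2.59 and 1.88, beside -0.06, 0.07 and -0.09 for the brightest probesets of the 8 members. Hspb1, a small heat shock protein, was higher by 5.38 with heat shock (adjusted p = 1.87e-10) and by 4.56 with benzyl alcohol (adjusted p = 5.48e-10). Hspa1b, an inducible Hsp70, was higher by 5.17 with heat shock (adjusted p = 3.31e-11), by 3.995 with benzyl alcohol (adjusted p = 2.99e-06) and by 1.94 with Lipofectamine (adjusted p = 4.64e-06), while the differences of Hspe1 with Lipofectamine were below 0. Hspa8 differed from control by 0.48 with heat shock and 0.40 with benzyl alcohol, Hsp90aa1 by 0.40 and 0.58, and Cct3 by -0.13 and 0.0045. These genes lay below Hspe1 at 1422579_at (0.54 and 0.72). The difference between the lists was not tested.

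**Figure D5:**
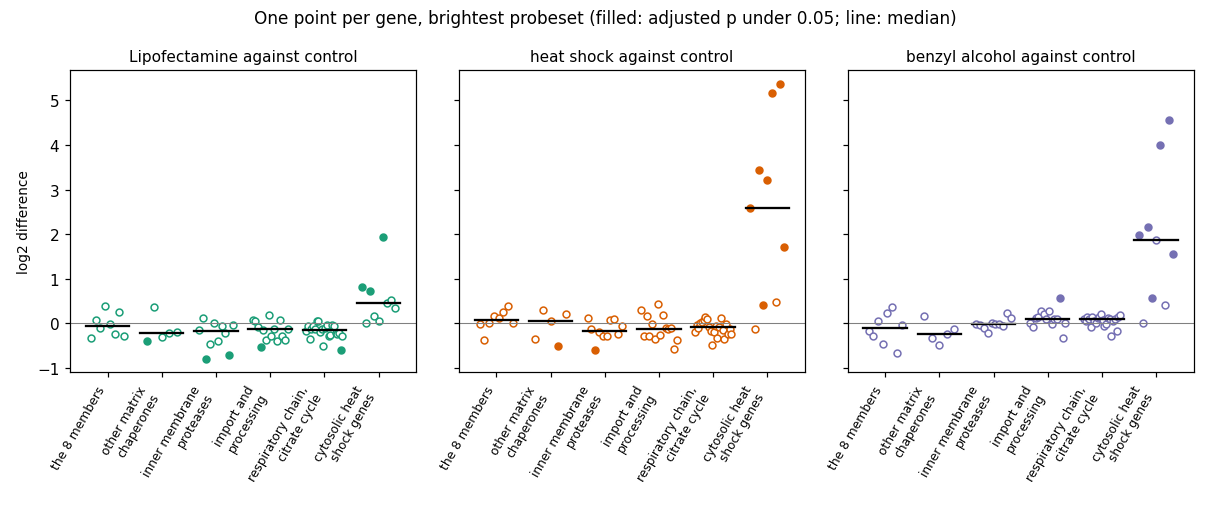
Log2 difference from the control arrays (y axis) for the 8 members and 5 other lists (x axis), with Lipofectamine, heat shock and benzyl alcohol from left to right. Each point is a gene at its brightest probeset, filled where its adjusted p is under 0.05, and lines are medians. The members scatter about 0 (medians -0.06, 0.07 and -0.09) and most cytosolic heat shock genes lie above it (medians 0.47, 2.59 and 1.88). The benzyl alcohol median of the latter is that of Hspa1a, which was not called.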

How the data were processed

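The deposited values are log2 signals that the authors obtained with GCOS 1.2 and RMA, a method that subtracts background, normalizes between arrays and combines the probes of a probeset. The RMA version is not given in the sources used here. Genes were named from the platform annotation, and coordinates and promoter windows are those of RefSeq (GRCm38.p6). With R 4.3.3 and limma 3.58.1, 64 control probesets were left out and 22626 probesets fitted, the control, Lipofectamine and heat shock arrays in 3 groups (11 arrays) and every comparison with benzyl alcohol in 4 groups (14 arrays). P-values were adjusted over all probesets by the Benjamini-Hochberg method, with a threshold of 0.05. All probesets of the members were named, and in each list up to 4 called genes per comparison, by smallest p, at the probeset with the highest mean over 14 arrays. The members and lists were chosen with earlier results of these data known. The code was tested on simulated data. The number of arrays limits the precision, and the alternatives are given at the end. The paper does not report on the benzyl alcohol arrays.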

Additional observations from a re-analysis of the deposited data

Results flagged for a closer look

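Among the 5 control arrays, Trap1 at 1416170_at had 1 array far from the rest. Control array 4 read 9.84 and the other control arrays 9.46 to 9.53, so that the gap to the nearest array took 0.814 of the whole range, against a critical value of 0.71 for 5 samples. Of 14 member probesets tested in this way 1 passed, and chance gives about 1 in 20. Without that array the difference of Trap1 between Lipofectamine and control stayed without a call.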

How the results depend on the processing

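Of 84 differences between groups at the member probesets 11 were called, and 5 of these calls were kept in every alternative (Hspe1 at 1422579_at between benzyl alcohol and control and between Lipofectamine and heat shock, both Hspe1 probesets between benzyl alcohol and Lipofectamine, and Hspa9 at 1431274_a_at between benzyl alcohol and Lipofectamine). Of 73 differences without a call, 23 gained one in some alternative. Where a difference was called in the main fit or in an alternative, its sign was the same in both. Between the 2 fits with part of the control arrays signs did differ, as given above for Hspa9 and Lonp1. Counts that moved follow, and the cause was not tested.

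Without control arrays 1 and 3 the member probesets called were 4 (Lipofectamine against control), 5 (heat shock against control), 2 (benzyl alcohol against control), 6 (Lipofectamine against heat shock) and 3 (benzyl alcohol against heat shock). All probesets called were then 4248, 4930, 686, 3080 and 3508 in these comparisons and 4351 for benzyl alcohol against Lipofectamine, beside 1104, 1349, 314, 1294, 1633 and 2699 with all arrays. Without control arrays 2, 4 and 5 the members were 2 (Lipofectamine against control, where 1045 of all probesets were called), 6 (benzyl alcohol against control), 5 (Lipofectamine against heat shock) and 3 (benzyl alcohol against heat shock), and all probesets 841 (heat shock against control), 2826 (benzyl alcohol against control), 2620 (Lipofectamine against heat shock) and 3138 (benzyl alcohol against heat shock).

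Leaving out each array in turn gave 0 to 1 member and 255 to 2262 probesets in all for Lipofectamine against control, the lowest without Lipofectamine array 1, 0 to 1 and 259 to 2658 for heat shock against control, and 1 to 2 and 131 to 441 for benzyl alcohol against control. It gave 1 to 4 and 424 to 1767 for Lipofectamine against heat shock, 0 to 2 and 227 to 2305 for benzyl alcohol against heat shock, and 3 to 5 and 1280 to 3187 for benzyl alcohol against Lipofectamine.

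At an unadjusted p under 0.001 the members were 3 (benzyl alcohol against control), 0 (benzyl alcohol against heat shock) and 3 (benzyl alcohol against Lipofectamine), and all probesets 729 (Lipofectamine against control), 782 (heat shock against control), 849 (Lipofectamine against heat shock), 827 (benzyl alcohol against heat shock) and 1378 (benzyl alcohol against Lipofectamine). With the mean of a gene's probesets, where fewer features were tested, 619, 709, 516, 898 and 1489 were called in these comparisons, and 1 member for Lipofectamine against heat shock. With only the 2 groups compared, 81 probesets were called for benzyl alcohol against control and 3336, with 3 members, for benzyl alcohol against heat shock. The fit of 14 arrays called 1 member, Clpp at 1416615_at, and 1231 probesets in all for Lipofectamine against control. A variance trend called 2 members and 302 in all, and the removal of dim probesets 2 and 327, for benzyl alcohol against control. Equal array medians left 0 members and 1324 in all for benzyl alcohol against heat shock, and 3 and 2474 for benzyl alcohol against Lipofectamine.

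The replicate numbers did not pair the samples (3 of 18 pairs of the same number correlated above 0.1, range -0.56 to 0.442). With the number as a block, 0 members were called for heat shock against control, and all probesets called were 186 for Lipofectamine and 192 for heat shock against control. Array weights were planned and not run, because the weights did not converge. Signals near background cannot be told apart from it, as no detection calls were used.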
